A study of Mus musculus with 3 samples.

Results

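SOX2 peaks that lay inside protein-coding genes and shared no base with a CHD7 peak were described in cells of the mouse otocyst, the vesicle that gives rise to the whole inner ear. They were selected on 2 measured features, the called SOX2 peak and the absence of a called CHD7 peak, and on position. They were the regions of the SOX2 peak list on chromosomes 1 to 19 and X that overlapped the body of a RefSeq protein-coding gene, had no base in common with any CHD7 region, and lay more than 1 kb from every protein-coding gene end. Of 153800 SOX2 peaks on these chromosomes, 53116 met all of these conditions (34.5%). The full SOX2 list held 155548 peaks and the CHD7 list 33035. Below, these 53116 regions are called CHD7-free intragenic SOX2 peaks. The 6430 SOX2 peaks inside genes that did share bases with a CHD7 peak are called shared intragenic peaks.

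The cells came from 34 wild-type otocysts of stage E10.5 that were pooled, dissociated with Accutase, and divided equally into 3 samples. One received an antibody to SOX2, one an antibody to CHD7, and one no primary antibody. Each was profiled by CUT&Tag, where a transposase tethered to the antibody cuts and tags DNA close to the bound protein. Each antibody had 1 library, all from the same pool of cells, so no value below has a replicate and none was tested between conditions. The intervals given are exact Clopper-Pearson 95% intervals over counts of peaks or sequence windows, taken as independent. With 1 library per antibody they cover counting error only. The sequenced reads carry no molecular identifiers and may repeat 1 molecule. The control without primary antibody was not analysed here. The pool held every cell of the dissected tissue, so a region bound in few cells and one weakly bound in many cannot be told apart, and peaks alone do not show which cell types were present.

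SOX2 is a transcription factor of the SOX family that binds DNA through an HMG box and is needed for the sensory and neuronal lineages of the inner ear. CHD7 is an ATP-dependent chromatin remodeler. Its loss in people causes CHARGE syndrome, which includes malformed semicircular canals, and mice lacking it have inner ear defects. Introns of developmental genes often hold enhancers, and long genes can also hold further transcription start sites far from the outer gene ends.

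A small number of the peaks covered such inner start sites, and these are where RefSeq gives sequence under a CHD7-free peak. The 250 bases before 5 of these starts are printed 5′ to 3′ on the strand of the gene (RefSeq, mm10), each wholly covered by 1 CHD7-free peak. The starts were chosen after their values were seen. Magi2 encodes a synaptic scaffold protein, and the printed stretch is chr5:19226796-19227045 on the plus strand, under a peak of total signal 3313. Fgf13 encodes an intracellular FGF homologue, with the stretch chrX:59134437-59134686 on the minus strand, under a peak of 1701. Robo2 encodes a receptor for SLIT guidance cues, with the stretch chr16:75092771-75093020 on the minus strand, under a peak of 1173. The last pair, both from outside the gene lists, held the letters CATTGT or CTTTGT, the core of many SOX binding sites, on either strand. They are Shroom3, a regulator of apical constriction (chr5:92809132-92809381, plus strand, peak total 3519), and Atp2c1, a calcium pump of the Golgi (chr9:105495134-105495383, minus strand, peak total 3636). Capitals mark those letters and occur in the last pair only. They were picked for these letters: of the 7 starts of listed genes whose 250 bases were wholly covered by a CHD7-free peak, 0 held them.
Magi2: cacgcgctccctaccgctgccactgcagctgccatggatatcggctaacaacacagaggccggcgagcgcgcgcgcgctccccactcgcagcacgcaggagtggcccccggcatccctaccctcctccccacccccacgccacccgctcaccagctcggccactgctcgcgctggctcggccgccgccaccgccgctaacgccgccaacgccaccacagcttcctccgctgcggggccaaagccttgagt
Fgf13: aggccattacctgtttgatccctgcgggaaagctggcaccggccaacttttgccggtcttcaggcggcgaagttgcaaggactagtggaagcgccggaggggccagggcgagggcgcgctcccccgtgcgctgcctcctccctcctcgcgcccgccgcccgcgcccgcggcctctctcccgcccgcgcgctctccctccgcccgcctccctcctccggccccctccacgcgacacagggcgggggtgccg
Robo2: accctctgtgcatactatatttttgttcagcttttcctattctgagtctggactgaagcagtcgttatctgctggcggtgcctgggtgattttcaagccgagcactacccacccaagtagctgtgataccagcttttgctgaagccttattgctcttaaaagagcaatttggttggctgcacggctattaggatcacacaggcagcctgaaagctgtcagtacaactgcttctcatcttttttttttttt
Shroom3: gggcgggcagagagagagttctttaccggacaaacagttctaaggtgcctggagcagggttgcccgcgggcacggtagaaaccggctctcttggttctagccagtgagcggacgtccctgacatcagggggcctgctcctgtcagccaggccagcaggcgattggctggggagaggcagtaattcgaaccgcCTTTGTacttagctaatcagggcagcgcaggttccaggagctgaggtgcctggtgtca
Atp2c1: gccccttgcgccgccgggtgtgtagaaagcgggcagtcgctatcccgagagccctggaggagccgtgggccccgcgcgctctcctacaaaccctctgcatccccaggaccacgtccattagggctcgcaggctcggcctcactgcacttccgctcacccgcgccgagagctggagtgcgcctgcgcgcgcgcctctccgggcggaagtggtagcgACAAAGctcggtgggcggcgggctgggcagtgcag
The stretches differed in base composition. The Magi2 stretch held 29 CG pairs, that of Fgf13 31, that of Atp2c1 28, that of Shroom3 12 and that of Robo2 4. Robo2 thus had an inner start that was poor in CG pairs, while 3 of the other 4 were rich in them.

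Most of the CHD7-free intragenic SOX2 peaks were weak and narrow. The deposited lists give each peak a total signal, which adds up the normalised coverage over the region, and a maximum signal. All maxima of the SOX2 list were whole multiples of 0.586, to within 0.0079 of a multiple, and this unit is called a step here. What a step stands for in reads is not stated by the labels. Total signal had a median of 938 and quartiles of 821 and 1202, against a lowest value of 733. The maximum had a median of 5 steps, and 53.4% of the peaks reached 5 steps or fewer. Widths had a median of 650 bases, and the peaks together covered 35.2 Mb, or 3.57% of the bases inside genes. The typical peak thus stood close to the lowest total that the list holds.

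Shared intragenic peaks were stronger. Their total signal had a median of 1613, which was 1.72 times that of the CHD7-free peaks. They were also wider, with a median of 750 bases, and per base of width the median ratio was 1.38. Their maximum had a median 1.60 times as high. CHD7-free peaks between genes, of which there were 68068, had the same median total as those inside genes, 938. The 9930 CHD7-free peaks at gene ends had a median of 1114.

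Because CHD7 overlap was part of the definition, the share of SOX2 peaks without CHD7 is a description of the lists. Inside genes that share was 89.2% of 59546 peaks (95% interval 88.9 to 89.4). It was 86.2% between genes and 65.0% at gene ends. Ranked by total signal over all SOX2 peaks, the share inside genes was 96.1% (95.5 to 96.6) in the weakest decile, 93.9% (93.3 to 94.5) in the sixth, 80.6% (79.5 to 81.6) in the ninth and 49.2% (47.7 to 50.6) in the strongest. The drop was thus concentrated in the strongest peaks. In that strongest decile the share was 44.8% between genes and 28.2% at gene ends. Only 2363 of the CHD7-free intragenic peaks, 4.45%, belonged to the strongest decile. CHD7 signal outside called peaks was not analysed here, so a region without a CHD7 peak is not shown to lack CHD7.

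**Figure D1:**
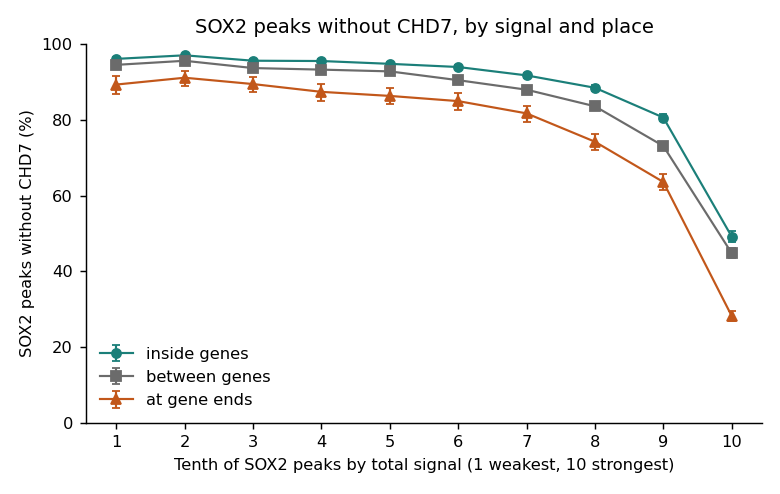
Share of SOX2 peaks that shared no base with a CHD7 peak (percent, vertical axis) by decile of total SOX2 signal (horizontal axis, weakest to strongest), inside genes, between genes and at gene ends; bars are exact binomial 95% intervals. Inside genes the share was 96.1% in the weakest decile and 49.2% in the strongest, and in both it was highest inside genes and lowest at gene ends.

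Few peaks stood near the limits of the definition. A CHD7 peak touched 53 of the CHD7-free intragenic peaks with no base between, lay within 50 bases of 135, and lay within 1 kb of 1838 (3.46%). Median totals of these were 997, 1056 and 997. On the other side of that limit, 61 of the shared intragenic peaks (0.949%) had 50 bases or fewer in common with CHD7, with a median total of 1173. At the distance limit, 1516 peaks lay in the first 500 bases beyond 1 kb from a gene end, with a median total of 1026. Just outside it, 2849 CHD7-free peaks lay in the last 500 bases before 1 kb, with a median of 997.

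The nearest CHD7 peak was mostly farther away than the nearest other SOX2 peak. The nearest CHD7 peak was at a median distance of 25.3 kb, with quartiles of 9.65 and 54.7 kb. The nearest other SOX2 peak was at a median of 3.90 kb, with quartiles of 1.45 and 9.10 kb. Within 10 kb, 77.9% (77.5 to 78.2) of the peaks had another SOX2 peak and 25.8% (25.5 to 26.2) had a CHD7 peak. The SOX2 list is much longer than the CHD7 list, so the distances to the lists are not on an equal footing. The definition also removed every peak that shared a base with CHD7. Of CHD7-free peaks between genes, 71.1% were that near to SOX2 and 24.2% to CHD7.

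The strongest CHD7-free intragenic peaks were few and carried little of the summed signal. The peak of highest total lay in Fam155a, a gene linked to the NALCN sodium leak channel, at chr8:9295851-9298050. Its total was 165672, which was 177 times the median, and its maximum was 459 steps. The next stood in Serpinf1, which encodes the secreted factor PEDF (chr11:75416851-75420800, total 54364, 113 steps), and a CHD7 peak lay 1.70 kb away. Rai14, which encodes an actin-associated protein, held a peak of 21259 (chr15:10590201-10591550). Rarb, which encodes a retinoic acid receptor, held one of 16509 (chr14:16458851-16459800) with 107 steps, 9.90 kb from the nearest CHD7 peak. The others of the 10 strongest lay in Fry, Inpp5a, Pak7, Cntn4, Nrg1 and Rsph3b, with totals from 12843 down to 9530. All 10 together held 0.546% of the summed signal. The level at these places without primary antibody was not analysed here.

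The peaks were spread over many genes. Of 21631 protein-coding genes, 11904 (55%) held at least 1, and 4004 of these held exactly 1. Only 19190 genes had an interior, the gene body without 1 kb at each end, and 62.0% of them held at least 1. The median over genes with any was 2. At the other end, 1340 genes held 10 or more, 420 held 20 or more and 42 held 50 or more, so that 1550 genes accounted for 50% of all pairs of gene and peak. A peak in overlapping genes was counted for each, which applied to 573 peaks. Over the 986.5 Mb of gene interior there were 5.38 peaks per 100 kb. The shared intragenic peaks numbered 0.652 per 100 kb.

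Counts per gene followed gene length. Genes over 100 kb were 11.2% of protein-coding genes and held 55.0% of the peaks (54.6 to 55.4), while making up 61.2% of the interior. Density per 100 kb of interior was 7.67 in genes under 10 kb, 7.08 at 10 to 30 kb, 5.82 at 30 to 100 kb, 5.36 at 100 to 300 kb and 4.27 above 300 kb. Long genes therefore held the most peaks but short genes the most per base. Shared intragenic peaks went the same way, with 0.812 per 100 kb in genes under 10 kb and 0.579 in those over 300 kb. Interiors exclude gene ends, so in short genes they consist mostly of sequence near those ends.

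The 10 genes with most CHD7-free peaks were all long. Ptprn2, which encodes a protein of dense-core vesicles, held 85, at 10.8 per 100 kb. Agbl4, a deglutamylase of tubulin, held 81 at 6.40, and Camta1, a calmodulin-binding transcription activator, held 77 at 9.62. Sdk1 and Cdh13, both adhesion molecules, held 75 and 74. Nav2, a neuron navigator, held 74, Macrod2 72, the zinc finger gene Zfp993 70, Cntnap2 68 and the synaptic scaffold gene Dlg2 67. Of these 10, Cntnap2, Dlg2 and Macrod2 were below the density of all genes, at 3.04, 3.40 and 3.61 per 100 kb, so they led by length. Zfp993 had the highest density of the 10 at 14.7, but it belongs to a family of like copies, so its count is uncertain.

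Ranked by density among genes with 5 or more, the first 10 were Gm3752 (63.2 per 100 kb), Gm3187, Gm3636, Gm15319, Agtrap, Gm3005, Tcp10c, Igsf9, Egfl7 and Hrnr. Of the first 50, 24 were predicted genes with provisional names, and 20 of these lay on chromosome 14. Such genes form families of near-identical copies, to which reads cannot be assigned with confidence, so their counts are uncertain. Among the others, Agtrap, which encodes a binding partner of the angiotensin receptor, held 5 peaks in 11 kb. Igsf9, an adhesion molecule of dendrites, held 8 in 17.3 kb, and Egfl7, a secreted endothelial factor, held 5 in 11.6 kb. The strongest in Igsf9 had a total of 2932 and the strongest in Egfl7 1349.

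Along the gene the peaks were nearly evenly placed. For the 17274 genes whose strand was known, the interior was divided into 10 equal bins from start to end. Each bin held between 9.57% and 10.6% of the peaks, with the most in the ninth bin (10.6%, 10.3 to 10.9) and 9.72% (9.44 to 10.01) in the first. In genes over 100 kb the first bin held 10.2% (9.77 to 10.6) and the last 11.1% (10.7 to 11.5). The peaks thus did not gather toward the start of the gene beyond the excluded 1 kb at this scale. In absolute distance, genes over 100 kb held 6.69 peaks per 100 kb at 2 to 5 kb from the start and 5.05 at 5 to 10 kb, and then stayed between 5.05 and 5.09 out to 200 kb.

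**Figure D2:**
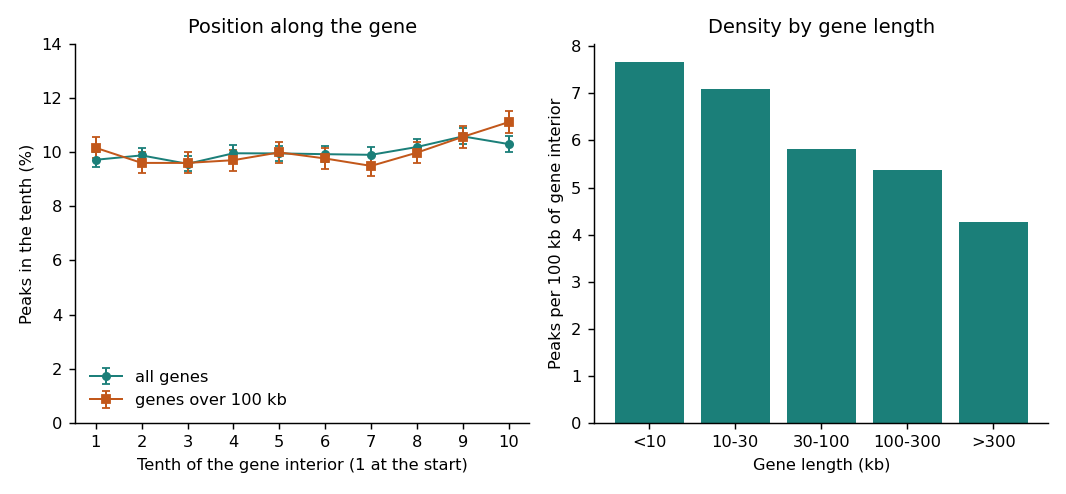
Left, percent of CHD7-free intragenic SOX2 peaks in each of 10 equal bins of the gene interior from start to end, for all genes of known strand and for those over 100 kb, with exact binomial 95% intervals. Right, peaks per 100 kb of gene interior by gene length class in kb. The bins stayed between 9.49% and 11.1%, and density was 7.67 in the shortest class and 4.27 in the longest.

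The X chromosome held fewer of these peaks than any autosome. Density was 1.62 per 100 kb on X, against 5.56 on the pooled autosomes and 4.51 to 6.46 on single autosomes, a ratio of 3.44. Shared intragenic peaks were also sparser on X, at 0.414 against 0.663 per 100 kb, with a ratio of 1.60. All CHD7 peaks inside genes came to 0.658 on X and 1.01 on the autosomes, with a ratio of 1.53. The gap was therefore wider for CHD7-free SOX2 peaks than for CHD7. Median total signal of the X peaks was 938, the same as over all chromosomes. Of SOX2 peaks inside genes, 79.6% lacked CHD7 on X and 86.3% to 90.6% did on single autosomes. The sexes of the pooled embryos were not known here.

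**Figure D3:**
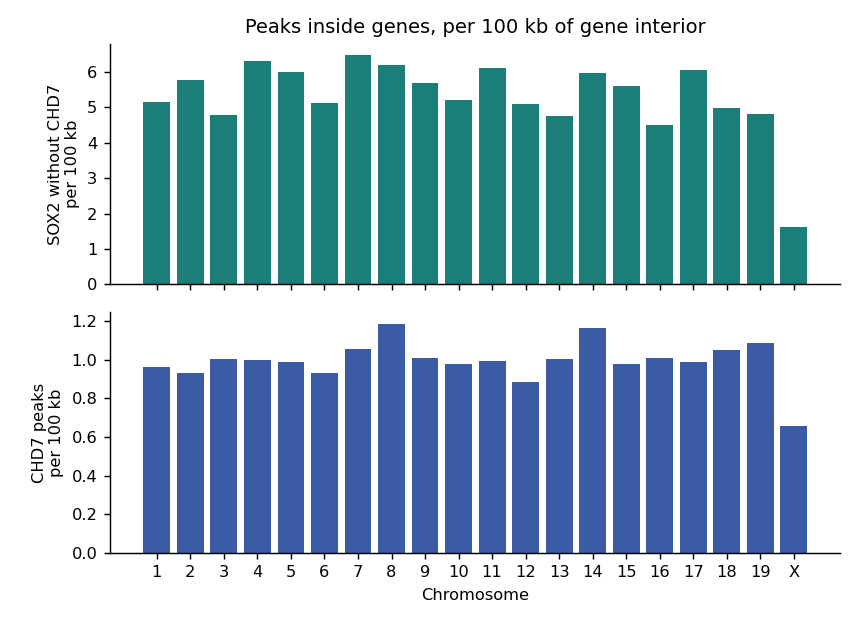
CHD7-free intragenic SOX2 peaks (top) and all CHD7 peaks inside genes (bottom) per 100 kb of gene interior, by chromosome, from 1 library each. X stood lowest in both, at 1.62 against 4.51 to 6.46 on the autosomes for SOX2 and 0.658 against 0.887 to 1.19 for CHD7.

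Density inside the gene was compared by what lay at the gene ends. Genes with both a SOX2 and a CHD7 peak at their ends held 5.30 CHD7-free peaks per 100 kb of interior. Genes with only SOX2 there held 5.63, those with only CHD7 5.70 and those with neither 5.05. The pooled values lay close together, but in the shorter classes genes with only SOX2 at the ends were denser than those with neither. The values were 9.27 against 5.99 in genes under 10 kb, 7.86 against 6.13 at 10 to 30 kb and 6.52 against 5.42 at 30 to 100 kb. Above 300 kb they were 4.26 and 4.19. By the median gene of any length the values were 4.43 and 2.77.

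Of the 11904 genes that held a CHD7-free peak, 4921 (41.3%) had no CHD7 peak in the gene or within 1 kb of it. The same share over all protein-coding genes was not worked out, so this value has no baseline here. Of the 4921, 122 held 10 or more. Trabd2b, which encodes an inhibitor of WNT ligands, held 30 over 208 kb. Its strongest peak (chr4:114567351-114568900) had a total of 2932 and stood 170 kb from the nearest CHD7 peak. Phactr3, an actin and phosphatase regulator, held 28, and Kcnip1, a potassium channel partner, held 24. The secreted factor gene Tafa5 held 23 and Ntn1 22. These genes were ranked among those without a CHD7 peak, so the absence of CHD7 peaks from them follows from the choice.

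Ntn1 encodes netrin-1, an axon guidance cue that is also needed for the fusion of the otic epithelium in semicircular canal formation. The gene lies at chr11:68209364-68386826, and its 22 CHD7-free peaks came to 12.5 per 100 kb. Their totals ran from 762 to 3167 with a median of 982. The strongest stood at chr11:68274201-68275250 with a maximum of 16 steps, 95.5 kb from the nearest CHD7 peak. A further SOX2 peak without CHD7 lay at the gene end, with a total of 3313. One of the 22 peaks, chr11:68220851-68221800 with a total of 1642, covered the hairpin of a microRNA, Mir6406 (chr11:68220892-68221011, plus strand). Mature sequences are shown from RefSeq with the seed, bases 2 to 8, in capitals. A second example is Mir6941, on the minus strand inside the Notch ligand gene Jag2 (chr12:112920483-112920541), under a CHD7-free peak with a total of 4310.
mmu-miR-6406: cGCGACCUcaggcugacucaug
mmu-miR-6941-5p: cUGGGGGAcugacggguagcu
mmu-miR-6941-3p: cUAACUCGgcugcucccaaag
No pair of these 3 shared a seed. In all, 54 of the 555 hairpins inside genes (9.73%) shared at least 1 base with 51 CHD7-free peaks, whose median total was 1056. Some shared only a few bases. Like-sized stretches elsewhere in genes were not counted, so this share has no baseline here. The peaks covered 3.57% of bases inside genes, which is not a like measure because any shared base counted for a hairpin.

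The genes that pattern the otocyst were read as 10 groups of regulators, lineage genes and signalling pathways. The lists were chosen with earlier results of these data known, so they are described and not tested. Beside them, all protein-coding genes had 5.36 CHD7-free peaks per 100 kb when summed gene by gene, a median gene 3.70, and 89.2% of the SOX2 peaks inside genes without CHD7. Of 19190 genes with an interior, 50% lay above that median by construction. Both the pooled density and the median gene varied with gene length, and the lists were not matched for it. In genes under 10 kb the median gene stood at 0, whatever lay at the gene ends.

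Otic placode and otocyst regulators had the lowest share without CHD7 of all lists. They held 108 CHD7-free peaks in 15 of 35 genes, at 5.47 per 100 kb, and 12 genes lay above the median gene. Of the SOX2 peaks inside these genes, 73.5% (65.6 to 80.4) had no CHD7, against 89.2% over all genes. Eya2, a transcriptional coactivator and phosphatase of the preplacodal network, is listed with the otic neuroblast genes below and is not counted here. It held 26 CHD7-free peaks together with 6 shared peaks. Its strongest CHD7-free peak (chr2:165615501-165616400) had a total of 3108 and 21 steps, with a CHD7 peak only 0.10 kb away. Lmx1a, a LIM-homeodomain factor that shapes the inner ear, held 20 beside 5 shared, at 12.6 per 100 kb. Lmx1b held 13 and 7 shared, so 65.0% (40.8 to 84.6) of its SOX2 peaks inside lacked CHD7.

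Pax2, a paired-domain factor of the early otic vesicle, held 9 CHD7-free peaks and 2 shared over 91.7 kb. The strongest (chr19:44800851-44801400) had a total of 3050 and 18 steps and stood 34.5 kb from the nearest CHD7 peak. Hmx2, a homeobox gene of the vestibular system, held 2 with no CHD7 peak, and Eya4 held 6 with none. The antibody targets themselves differed. Chd7 held 10 CHD7-free peaks and 2 shared over 178 kb, with a strongest total of 1290. Sox2, at 2.47 kb, held none inside and had both SOX2 and CHD7 at its ends.

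Genes of sensory and hair cells held 178 CHD7-free peaks in 15 of 24 genes, at 4.76 per 100 kb, and 87.7% (82.4 to 91.9) of their SOX2 peaks lacked CHD7. Many came from long genes of the hair bundle. Pcdh15, a tip link protocadherin, held 52 over 1554 kb. Cdh23, its tip link partner, held 33. Myo7a, the myosin of the hair bundle, held 11 over 68.5 kb, at 16.5 per 100 kb, with no CHD7 peak. Its strongest (chr7:98060001-98060250) had a total of 5952 in a region only 250 bases wide, with a maximum of 88 steps.

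Semicircular canal genes held 79 in 13 of 19 genes, at 6.57 per 100 kb, with 89.8% (81.5 to 95.2) lacking CHD7. Ntn1 led, as described, followed by Gli3 with 14. Lrig1, a transmembrane protein related to LRIG3, which limits netrin-1 in canal formation, held 10 and no shared peak inside, at 10.7 per 100 kb, although its end carried both SOX2 and CHD7. The strongest in Lrig1 (chr6:94658951-94660850) had a total of 2639 and stood 37.7 kb from CHD7. These genes thus had CHD7-free peaks through the gene, with CHD7 peaks absent, at a few places or at an end.

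**Figure D4:**
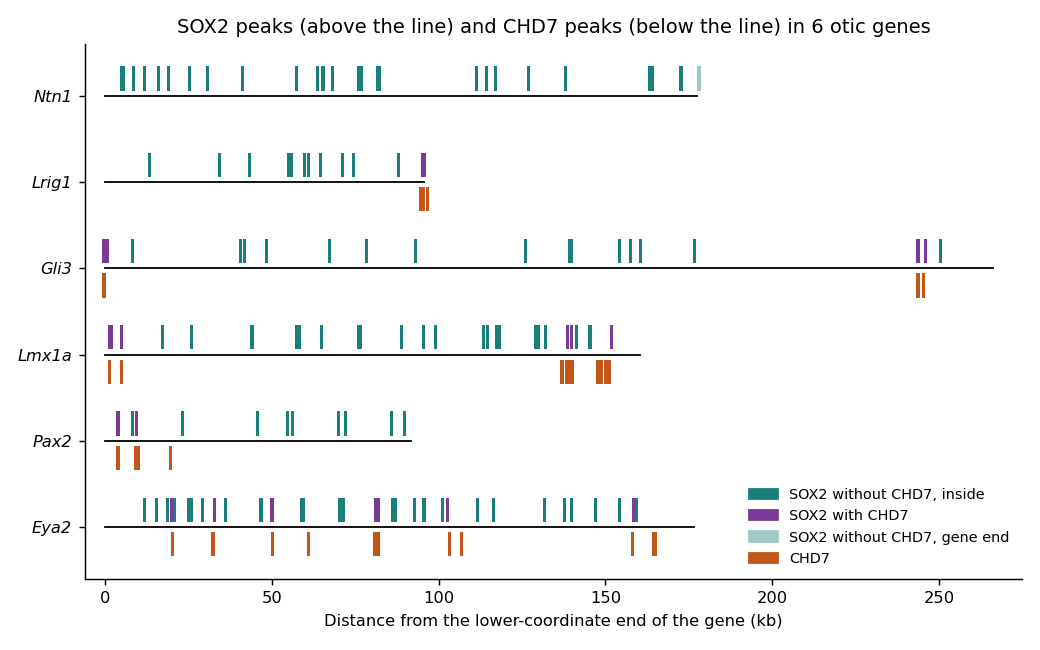
SOX2 peaks (above each line, by class) and CHD7 peaks (below) along 6 otic genes, as distance in kb from the lower-coordinate end of the gene. Ntn1 had 22 CHD7-free SOX2 peaks inside and no CHD7 peak, while Lmx1a had 20 CHD7-free and 5 shared, and Eya2 26 and 6.

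Otic neuroblast genes, which form the neurons of the cochlear and vestibular ganglia, held 100 in 14 of 20 genes, at 7.28 per 100 kb. Of their SOX2 peaks, 92.6% (85.9 to 96.7) lacked CHD7. Ntrk2, the receptor for BDNF, held 27 with no shared peak, and its strongest (chr13:59091351-59093150) had a total of 3401. Ntrk3, the receptor for neurotrophin-3, held 19, also with no shared peak. Eya2, which is in this list and not in that of the otic regulators, gave 26 of the 100 and 6 of the 8 shared peaks. The RNA-binding protein gene Elavl4 held 9, and the proneural factor gene Neurod1, which is short, held 2.

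Genes of the SOX family held 89 in 7 of 19 genes, at 5.44 per 100 kb, and 83.2% (74.7 to 89.7) of their SOX2 peaks lacked CHD7. Long SOXD genes held most of them. Sox5 held 48 with 10 shared, and Sox6 24 with 7 shared. Sox13, the remaining gene of that subgroup, held 9 over 42.2 kb, at 22.4 per 100 kb, with no CHD7 peak. Its strongest (chr1:133396601-133399100) had a total of 7829 and 24 steps. Sox10, a factor of the otic vesicle and of glia, held 3.

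The signalling pathways ranged from 4.43 to 7.85 CHD7-free peaks per 100 kb. Hedgehog genes had 7.85 per 100 kb and 96 peaks in 15 of 16 genes, and 14 of the 16 lay above the median gene. Gli2, a transcription effector, held 23 with 1 shared, and Evc2, a ciliary protein, held 12 with no CHD7 peak in the gene. Sufu, the inhibitor of the GLI factors, held 9. WNT genes had 7.62 per 100 kb and 181 peaks in 29 of 36 genes, with 27 of 36 above the median gene. Ror1, a receptor for noncanonical WNT, held 20, and the ligand gene Wnt5b held 12. Tcf7l2, an effector, held 16 with 4 shared, the strongest with a total of 3929 (chr19:55836801-55838600).

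Notch genes had 6.38 per 100 kb and 107 peaks in 20 of 27 genes. The coactivators Maml3 and Maml2 held 23 each, and the receptor Notch1 held 9 beside 3 shared. BMP genes had 5.25 per 100 kb and 96 peaks in 19 of 27 genes, and 93.2% (86.5 to 97.2) of their SOX2 peaks lacked CHD7. Among them the receptor gene Bmpr1b held 15 and the ligand gene Bmp7 held 11. FGF genes had 4.43 per 100 kb when pooled, the lowest of the pathways, with 117 peaks in 20 of 24 genes. The long genes of intracellular homologues weighed on that value, with Fgf14 holding 25 peaks at 3.57 per 100 kb, Fgf12 18 at 3.03 and Fgf13 11 at 2.11. The median FGF gene stood at 6.47 per 100 kb, against 3.70 for all genes, 5.76 for Notch and 4.45 for BMP genes, and 14 of the 24 lay above the median of all genes. Without matching for gene length, hedgehog and WNT genes were thus denser than all genes both pooled and by the median gene (8.94 and 7.67). FGF genes were less dense pooled and denser by the median gene. Median gene length was 69.5 kb for hedgehog, 43.3 kb for WNT and 49.6 kb for FGF genes, against 17.3 kb over all genes.

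**Figure D5:**
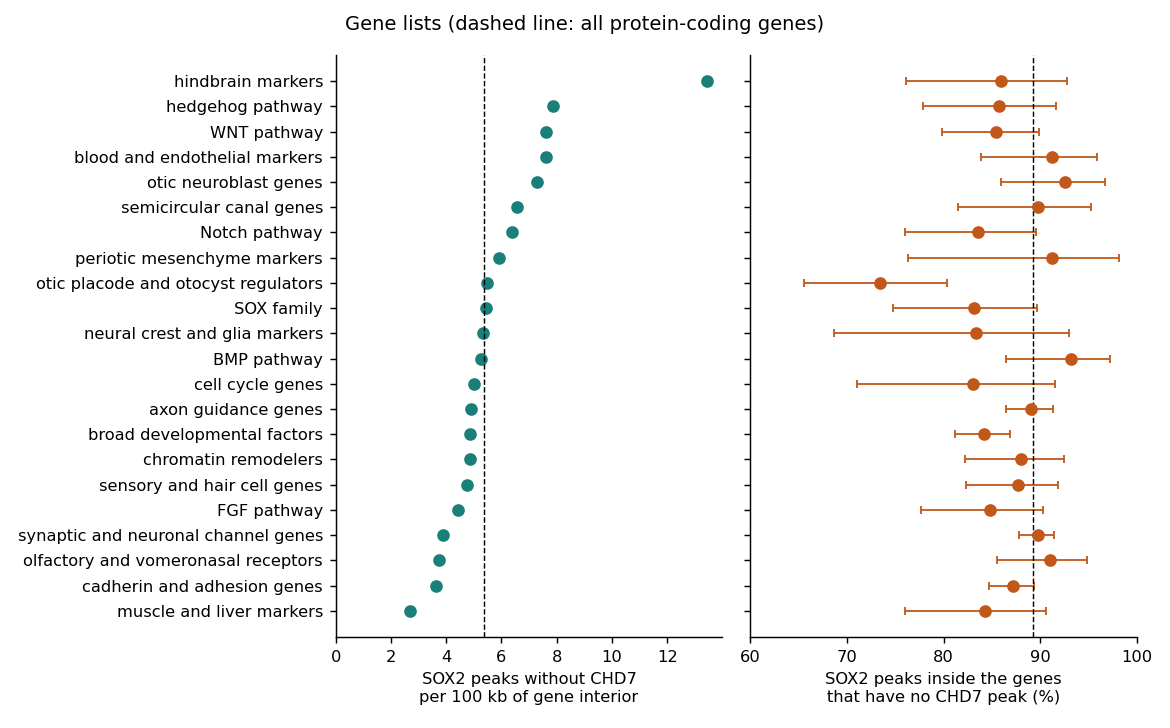
Each gene list as 1 point: left, CHD7-free SOX2 peaks per 100 kb of gene interior; right, percent of the SOX2 peaks inside the genes that lacked CHD7, with exact binomial 95% intervals; dashed lines are all protein-coding genes (5.36 and 89.2%). Hindbrain markers stood highest on the left at 13.5, and otic regulators lowest on the right at 73.5%.

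Lists of other cell types were read in the same way. Hindbrain markers had the highest pooled density of all lists, at 13.5 per 100 kb, from 67 peaks in 14 of 23 genes. Of those 67, Msi1, an RNA-binding protein of neural progenitors, held 18 and Pax7, a dorsal neural and neural crest factor, held 15. Blood and endothelial markers had 7.61 per 100 kb in 16 of 25 genes, with Flt1, a VEGF receptor, holding 16. Periotic mesenchyme markers had 5.92 in 11 of 20 genes and neural crest and glia markers 5.32 in 10 of 15. Muscle and liver markers were lowest when pooled, at 2.70 in 12 of 23. Dmd, a gene of 2390 kb on X, held 38 of their 91 peaks at 1.59 per 100 kb. It weighed on the pooled value, as the interior of the whole list was 3374 kb. The median gene of this list stood at 1.88. Pooled, otic regulators, at 5.47, thus lay below hindbrain, blood and endothelial, and mesenchyme markers. Otic neuroblast (7.28) and semicircular canal genes (6.57) lay below hindbrain and blood and endothelial markers only. By the median gene, otic neuroblast genes (8.29) lay above hindbrain (7.24) and blood and endothelial markers (7.18). Semicircular canal genes stood at 5.49, mesenchyme markers at 2.58 and otic regulators at 0 by that measure. Median gene length was 9.69 kb for otic regulators, 7.72 kb for hindbrain markers and 28.9 kb for semicircular canal genes. How far cells of other tissues in the dissection contributed was not tested.

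Long neuronal genes were the largest holders by count but were sparse per base when pooled. Pooled over all genes, those over 300 kb stood at 4.27 per 100 kb and those of 100 to 300 kb at 5.36. Median gene length was 502 kb for synaptic and channel, 363 kb for cadherin and adhesion and 255 kb for axon guidance genes. By the median gene, synaptic and channel genes stood at 3.98 and axon guidance genes at 4.52, above 3.70 for all genes. Cadherin and adhesion genes stood at 2.97. Synaptic and channel genes held 999 in 40 of 40 genes, at 3.90 per 100 kb, and cadherin and adhesion genes held 722 in 36 of 38, at 3.62. Axon guidance genes held 596 in 34 of 34, at 4.90. In that list, Robo2 held 53 over 1555 kb and Slit3, which encodes a ligand for ROBO receptors, held 50 over 587 kb. Olfactory and vomeronasal receptors, which are short and form large families of like copies, held 151 in 91 of 1465 genes, at 3.73. Only 296 of the 1465 had an interior, so most of them could not hold such a peak. Developmental transcription factors with broad expression had 4.86 and a share without CHD7 of 84.2% (81.2 to 86.9). Among them Prdm16 held 48 and 6 shared, at 15.04 per 100 kb. Chromatin remodelers had 4.84 in 31 of 34 genes and cell cycle genes 5.02 in 17 of 35.

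The inner transcription start sites described at the outset were then taken as a set. RefSeq windows of 300 bases around annotated starts gave 3545 inner starts of protein-coding genes, more than 1 kb from any gene end. Of these, 566 (16%, 14.8 to 17.2) overlapped a CHD7-free peak. Any shared base counted, so a window could be covered only in part and the start itself could lie outside the peak. A further 422 (11.9%, 10.9 to 13.0) overlapped a SOX2 peak with CHD7, 247 had CHD7 alone and 2310 had neither. After a move by 5 kb to either side, 2714 and 2678 windows were counted. They overlapped a CHD7-free peak in 7.11% (6.17 to 8.14) and 7.77% (6.78 to 8.85). Moved windows overlapped a shared peak in 0.921% (0.597 to 1.36) and 0.859% (0.545 to 1.29). Windows at inner starts thus overlapped CHD7-free peaks more often than the moved windows, with intervals that did not overlap, and the difference was larger for shared peaks. Fewer windows were counted after the move and the starts were not recounted on those alone, so the sets are not the same. Inner starts of noncoding genes were then counted too, 6087 windows in all. Few of the CHD7-free peaks overlapped a start window, 790 (1.49%, 1.39 to 1.59), against 460 shared peaks (7.15%, 6.54 to 7.81). The CHD7-free peaks that overlapped a start window had a median total of 1173, against 938 elsewhere.

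Sequence at the inner starts differed between the classes of peak more in CG content than in SOX letters. Windows that overlapped a CHD7-free peak had a median of 12 CG pairs, those that overlapped a shared peak 21 and those that overlapped neither 5. Whole windows were read, including any part outside the peak. The GC content was 57.3%, 63.0% and 51.0%. The letters CATTGT or CTTTGT, on either strand, occurred in 26.9% (23.2 to 30.7) of windows overlapping CHD7-free peaks. The share was 24.4% (20.4 to 28.8) for windows overlapping shared peaks and 31.0% (29.2 to 33.0) for those overlapping neither. Over all 32619 windows of the table the share was 28.3%. Windows overlapping CHD7-free peaks held these letters about as often as windows at large, within counting error. The E box CANNTG, bound by bHLH factors, was in 70.8% (66.9 to 74.6) against 72.3% of all windows. The CCAAT letters were in 32.5% (28.7 to 36.5) against 37.6%. The AP-1 letters TGACTCA or TGAGTCA were in 4.06% against 5.22%, and the octamer ATGCAAAT in 1.24% against 1.75%. Inner start windows that overlapped neither peak held the E box in 75.3% (73.5 to 77.0) and CCAAT in 34.1% (32.2 to 36.1). They held the AP-1 letters in 6.06% (5.12 to 7.11) and the octamer in 1.56%. All were searched on both strands, and a match is a description of the sequence only. Sequence under the other peaks was not analysed here.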

How the data were processed

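CUT&Tag peak lists for SOX2 and CHD7 from 1 library each were used. Per the submitters' processing notes, the processing used Bowtie2, deepTools and SEACR with mm10, but versions, order and settings were not given in the sources used here. Deposited lists give regions in bins of 50 bases with a total and a maximum signal, which is normalised coverage made by the authors. The scaling and the read depth are unknown, so signals were compared within the SOX2 list only.

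Regions were compared by shared bases (at least 1), using protein-coding genes of RefSeq (GRCm38.p6, which is mm10), with Python 3.11.15, numpy 2.4.6, pandas 2.3.3 and scipy 1.17.1. Strand came from the RefSeq table of promoters, for 17274 of 21631 genes. Exons, introns and UTRs were not told apart. No genome was used, so motifs were searched in RefSeq windows around start sites, joined where within 500 bases, and not around signal maxima as first planned. Overlap counting was tested on simulated data.

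The definition of the peaks and the gene lists (21 lists, 547 genes, plus olfactory and vomeronasal receptors by name) were chosen with earlier results of these data known. Genes named were the antibody targets, the 10 with most peaks, with most per 100 kb (5 or more), with most and no CHD7 peak, and with the strongest peaks, and up to 4 with most and 2 with none from each list. A few others were named after their values were seen, and some that the rule names are not reported here. Alternatives were the stronger 50% of SOX2 peaks, no CHD7 peak within 1 kb, gene ends of 500 bases or 2 kb, neighbours within 5 kb, and other measures of signal. Those for inner starts and the X chromosome were added after seeing the data.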

Additional observations from a re-analysis of the deposited data

How the results depend on the processing

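With only the stronger 50% of SOX2 peaks, 23680 CHD7-free peaks remained, the share without CHD7 inside genes was 82.2%, and the median total of shared peaks was 1.56 times theirs. Genes over 100 kb then held 53.2%, density was 2.39 per 100 kb, and 59.7% had SOX2 and 27.2% CHD7 within 10 kb. Of genes with a peak, 37.4% had no CHD7 peak. Of windows at inner starts, 11.03% overlapped a CHD7-free peak, and the ratio of autosomes to X was 4.32. Asking for no CHD7 peak within 1 kb gave a share of 86.3%, a signal ratio of 1.5, 5.18 per 100 kb, 9.36% in the first bin of the gene, 77.3% near SOX2, 23.3% near CHD7 and an X ratio of 3.51. Gene ends of 500 bases gave 53.8% in long genes, 5.43 per 100 kb and an X ratio of 3.40, and ends of 2 kb gave 57.3%, 5.25 and 3.44. Within 5 kb, 57.7% had SOX2 and 14.96% CHD7. Signal ratios were 1.38 per base and 1.60 for the maximum. With the stronger peaks, counts in only 55 of 154 named genes stayed within 1.5 times and the share without CHD7 was lower in all 21 lists. Gene-end states, microRNA hairpins, noncoding starts and the distance profile were not run under alternatives, and lists and named genes not with ends of 500 bases. Of the lists, 3 changed side of the density of all genes under 1 alternative each: sensory and hair cell genes with the stronger peaks, otic regulators with no CHD7 within 1 kb, and SOX genes with ends of 2 kb. No paired analysis was possible because each antibody had 1 library. Motifs around signal maxima were not run for want of a genome. With SOX letters sought in 150 bases, they occurred at 15.2% of the inner starts whose windows overlapped a CHD7-free peak. The lists' lowest totals limit what can be seen: CHD7 or SOX2 binding below them is not counted.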

Other observations

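Some genes held many SOX2 peaks inside and none that shared a base with a CHD7 peak. Of the 513 genes with 20 or more SOX2 peaks inside, 46 had no shared peak. Over all genes, 89.2% of the SOX2 peaks inside lacked CHD7, so some such genes can arise by counting alone. How many would was not worked out. The highest counts were 62 of 62 in Zfp978, taken up below, and 36 of 36 in the predicted gene Gm38510. Plxna4, a semaphorin coreceptor, had 35 of 35 without CHD7, although 3 CHD7 peaks lay in or near the gene. Hivep3, a zinc finger factor, and Kirrel3, a synaptic adhesion molecule, each had 34 of 34, and the NMDA receptor subunit gene Grin2b had 31 of 31. At the other end, 20 genes had under 75% without CHD7. Mecom, a zinc finger transcription factor, was lowest with 11 of 20 (55%, 31.5 to 76.9), followed by Rgs3, a regulator of G-protein signalling, with 13 of 21. The median over the 513 genes was 89.7%. These genes stand at the extremes of a ranking, so their shares describe these lists only.

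The zinc finger genes Zfp993 and Zfp978 on chromosome 4 held 70 and 62 CHD7-free peaks. They belong to a family of like copies, so the assignment of their reads is uncertain.

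Windows at inner start sites of noncoding genes overlapped CHD7-free peaks less often than those of protein-coding genes. Of 2542 such windows, 249 (9.80%, 8.67 to 11.02) overlapped a CHD7-free peak. After a move by 5 kb to either side, 7.41% (6.35 to 8.59) of 2185 and 6.65% (5.65 to 7.78) of 2209 counted windows did. The 249 windows had a median CG count of 6.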
